A study of Mus musculus with 11 samples.

Results

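Phf6, the Polycomb repressive complex 2 (PRC2) genes Ezh2, Eed, Suz12 and Jarid2, the DNA methyltransferase genes Dnmt1, Dnmt3a and Dnmt3b, and the methylcytosine dioxygenase genes Tet1 and Tet2 were measured by RNA sequencing in sorted mouse thymocytes. These 10 genes were chosen by name as chromatin regulators of early T cells and T cell leukaemia. All 10 were among the 13780 genes tested, out of 35975 genes with transcripts in the files. DN2 and DN3 cells, successive CD4-CD8- stages of T cell development in the thymus, were sorted from wildtype (WT) and from Arpp21-/- mice. The labels give the strain as C57BL/6J for both genotypes. The study states a C57BL/6 background for all its mice, and C57BL/6N parents for the edited embryos. Arpp21-/- mice lack the long isoform of the RNA-binding protein Arpp21 in the whole animal after CRISPR/Cas9 editing in zygotes. The groups held 3 DN2 WT, 2 DN2 Arpp21-/-, 3 DN3 WT and 3 DN3 Arpp21-/- libraries, 11 in all. The edit shifts the reading frame around an early coding exon, a shorter Arpp21 protein is still made in the knockout, and no drug or other agent was given. The study states for its mice in general that both sexes were used, and does not name the sex behind each library. The study compared the genotypes to learn which mRNAs depend on Arpp21, and it lists Phf6 among the mRNAs that Arpp21 binds in the 3′-UTR.

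PRC2 places methyl groups on lysine 27 of histone H3 and thereby keeps genes silent. Ezh2 is its catalytic subunit, Suz12 and Eed are core subunits without which the enzyme is inactive, and Jarid2 is an accessory subunit that helps recruit the complex to chromatin. Dnmt1 copies DNA methylation onto the new strand after replication, Dnmt3a and Dnmt3b set methylation on unmethylated DNA, and the Tet enzymes oxidise methylcytosine as a step towards its removal. Phf6 encodes an X-linked chromatin protein with PHD-like zinc fingers. Loss-of-function mutations of PHF6, of PRC2 subunit genes and of DNMT3A recur in human T cell acute lymphoblastic leukaemia.

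Promoter sequence from RefSeq (GRCm38.p6, 250 bases before to 50 bases after each start site) was available for 9 of the 10 genes, with 14 promoters in all. Those promoters held a median of 27 CpG dinucleotides, beside a median of 7 over 32851 promoters. They were searched on either strand for the E2F-type letters TTTCCCGC and TTTGGCGC, since E2F factors drive many genes of DNA replication, and for the E-box CACGTG. An E2F-type match was present in 3 of the 14 promoters, each of a different gene, and in 1.56% of all promoters. Both E2F-type strings hold a CpG, and promoters of like CpG content were not compared. The matching promoters of Ezh2, Suz12 and Dnmt1 are given with the match in capitals, followed by the intragenic promoter of Dnmt3a, which holds the E-box, in capitals, that 7.15% of all promoters hold, and which is shown because most of the Dnmt3a signal was assigned to the transcript that starts there.
Ezh2, chr6:47594981-47595280, minus strand: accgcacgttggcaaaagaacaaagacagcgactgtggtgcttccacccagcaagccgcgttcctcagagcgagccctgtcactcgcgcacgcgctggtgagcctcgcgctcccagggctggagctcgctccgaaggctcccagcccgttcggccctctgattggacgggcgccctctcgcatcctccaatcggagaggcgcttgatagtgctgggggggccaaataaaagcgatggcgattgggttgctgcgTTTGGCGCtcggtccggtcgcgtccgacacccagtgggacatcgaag
Suz12, chr11:79992856-79993155, plus strand: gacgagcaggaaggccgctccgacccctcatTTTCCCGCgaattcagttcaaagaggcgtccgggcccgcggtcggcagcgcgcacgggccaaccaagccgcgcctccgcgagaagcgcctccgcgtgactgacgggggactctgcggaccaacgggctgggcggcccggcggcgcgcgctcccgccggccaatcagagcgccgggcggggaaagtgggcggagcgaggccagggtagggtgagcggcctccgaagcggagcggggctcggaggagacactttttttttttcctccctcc
Dnmt1, chr9:20952574-20952873, minus strand: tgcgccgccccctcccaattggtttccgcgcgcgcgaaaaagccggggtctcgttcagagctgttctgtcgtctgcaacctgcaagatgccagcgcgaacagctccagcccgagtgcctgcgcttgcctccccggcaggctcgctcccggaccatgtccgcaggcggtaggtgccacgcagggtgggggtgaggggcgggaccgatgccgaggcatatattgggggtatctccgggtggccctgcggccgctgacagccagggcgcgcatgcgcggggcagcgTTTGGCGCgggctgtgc
Dnmt3a, chr12:3891494-3891793, plus strand: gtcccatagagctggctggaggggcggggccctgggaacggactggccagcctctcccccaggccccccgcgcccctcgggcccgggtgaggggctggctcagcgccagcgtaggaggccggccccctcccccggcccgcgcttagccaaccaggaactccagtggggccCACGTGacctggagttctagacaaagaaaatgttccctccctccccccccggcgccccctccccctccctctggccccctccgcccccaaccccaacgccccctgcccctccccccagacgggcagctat
Counting the start site as base 1, the match begins at base 4 in Ezh2 and at base 34 in Dnmt1, while that of Suz12 begins 219 bases before the start. Transcripts starting within 100 bases of the site carried 53.2% of the Ezh2 signal in TPM, a measure of abundance per transcript length, 93.4% of those of Suz12, but only 0.787% of those of Dnmt1, as means of 9 libraries. Most Dnmt1 signal, 68.9%, was assigned to a transcript that starts at chr9:20952979 on the minus strand, in a promoter with no E2F-type match. These matches describe letters in the sequence and were not tested as binding sites.

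Each library held between 14531762 and 63109504 estimated read counts. DN2 Arpp21-/- replicate 2 and DN3 Arpp21-/- replicate 3 stood apart from the other 9 libraries: genes with long transcripts were low in them, and their scaling factors by the trimmed mean of M-values (TMM) were 0.599 and 0.861, against 1.03 to 1.11 elsewhere. Because both are knockout libraries, results that rest on them are given with and without them. Of 8 DN3 markers, 5 (Rag1, Rag2, Ptcra, Notch3 and Dtx1) were higher in DN3 than in DN2 WT cells, and of 8 DN2 markers only Cd44 was lower (edgeR, Benjamini-Hochberg adjusted p under 0.05), with 5 of those 8 at values above 0. Markers of other cells also moved with the stage, with a summed level of 7 myeloid genes of 114 to 159 CPM (the usual scaling of counts to library size, with TMM factors) in DN2 WT, 134 to 357 in DN2 Arpp21-/-, 29.9 to 36.8 in DN3 WT and 34.7 to 47.6 CPM in DN3 Arpp21-/-. The summed level of 6 genes of the later double-positive stage was 126 to 151 CPM in DN2 WT and 404 to 501 in DN3 WT, 43.5 to 131 CPM in DN2 Arpp21-/- and 276 to 452 CPM in DN3 Arpp21-/-. Themis alone carried most of it, with 377 to 476 CPM in DN3 WT, where Cd4, Cd8a, Cd8b1, Cd69 and Trac reached at most 10.3 CPM. The 5 B cell markers summed to 38.6 to 71.9 CPM, nearly all of it Cd79b, with Pax5 at 0 in all 11 libraries and Cd79a, Ms4a1 and Ebf1 at or below 1.23 CPM. Of the myeloid markers Tyrobp and Fcer1g, 2 of 7, were called lower in DN3 WT. The part of such cells in the results was not tested. Fewer cells of a type and less RNA per cell cannot be told apart in these bulk samples. Arpp21, summed over its transcripts, lay at 125 to 183 CPM in DN2 WT, at 86.9 and 28.5 in DN2 Arpp21-/-, at 312 to 386 in DN3 WT and at 142 to 335 CPM in DN3 Arpp21-/-; a sum over transcripts does not see the frameshift itself.

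Per transcript length, Dnmt1 and Ezh2 were the most abundant of the genes and Tet2 the least. In DN3 WT cells the mean level was 133 TPM for Dnmt1, 95.8 for Ezh2, 63.5 for Phf6, 49.3 for Dnmt3a, 26.3 for Eed, 26.1 for Jarid2, 20.5 for Tet1, 19.1 for Dnmt3b, 14.0 for Suz12 and 5.04 TPM for Tet2. Among neighbours in that order, the ranges of the 3 libraries did not overlap between Ezh2 and Phf6, between Phf6 and Dnmt3a, between Dnmt3a and Eed, and between Suz12 and Tet2, and they overlapped for the other 5 pairs. In DN2 WT cells the top 4 genes stood in the same order, from 144 TPM for Dnmt1 to 45.0 TPM for Dnmt3a, and Jarid2 stood at place 8, at 13.6 TPM. Of the catalytic subunits, Ezh2 exceeded its paralogue Ezh1 in TPM in each of the 11 libraries. The ratio was 4.52 to 5.74 in DN2 WT and 2.23 to 3.85 in DN3 WT, ranges that do not overlap. In Arpp21-/- cells the stages overlapped in this ratio, also without the 2 libraries that stood apart. DN2 Arpp21-/- replicate 1, at 3.71, lay within the DN3 WT range. The ratio of Dnmt3a to Dnmt3b was 2.51, 1.26 and 1.03 in DN2 WT and 3.81, 2.40 and 2.06 in DN3 WT libraries 1, 2 and 3, higher in DN3 within each number. Both ratios are descriptions without a test.

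**Figure D1:**
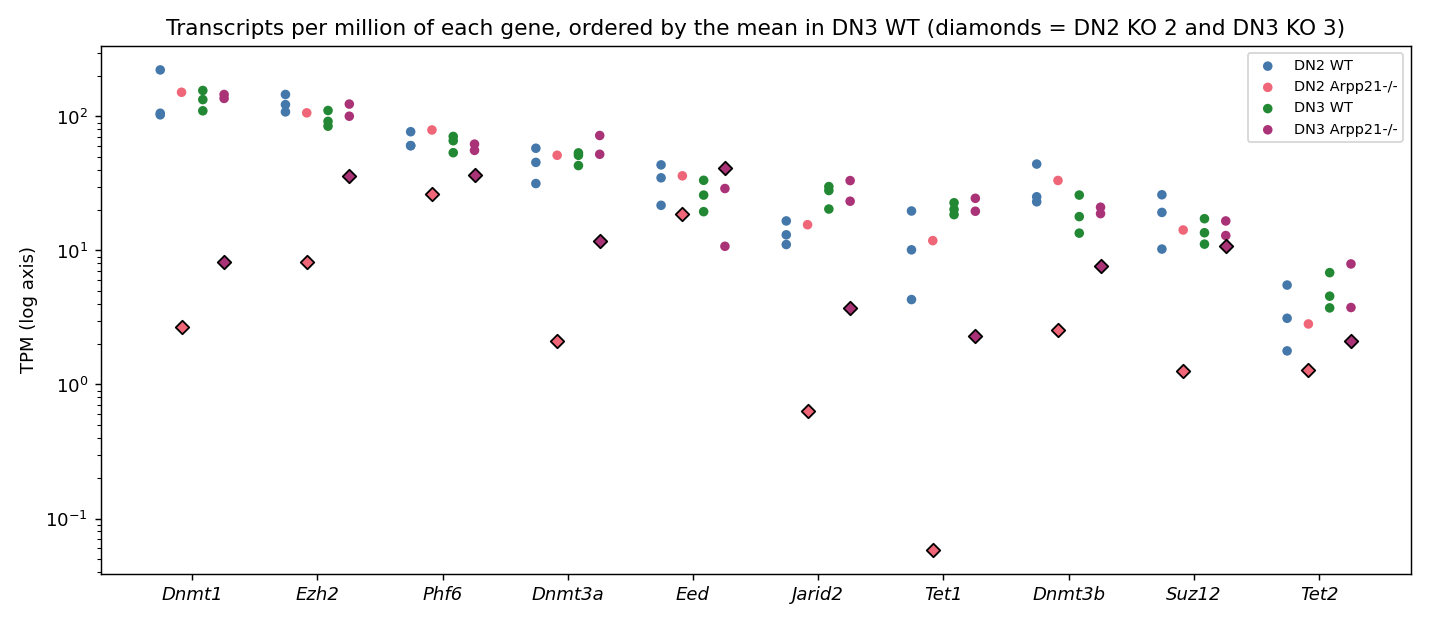
TPM (vertical log axis) of each gene in each of the 11 libraries, coloured by group, with diamonds for DN2 Arpp21-/- replicate 2 and DN3 Arpp21-/- replicate 3. Genes are ordered by their mean in DN3 WT, from 133 TPM for Dnmt1 to 5.04 TPM for Tet2, and the diamonds lie lowest for most genes.

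Phf6 was the steadiest of the 10 genes. Its level was 219, 201 and 188 CPM in DN2 WT, 238 and 224 CPM in knockout DN2 cells, 199.8, 158 and 178 CPM for DN3 WT and 171, 162 and 173 CPM for knockout DN3 libraries. Thus the highest library exceeded the lowest by 1.504-fold, and the genotypes overlapped in DN3 while the 2 DN2 Arpp21-/- libraries lay above the 3 DN2 WT libraries. The standard deviation of log2 CPM over the 11 libraries was 0.20 for Phf6, against 0.74 to 2.27 for the other 9 genes and a median of 0.61 over 8510 genes with a mean of at least 10 CPM. Only 4.17% of those 8510 genes varied less, but over the 9 libraries without the 2 that stood apart the share was 28.9%. Over those 9 libraries the standard deviation was 0.198 for Phf6, close to 0.205 for Dnmt3a and 0.245 for Ezh2. It reached 1.07 for Eed, the highest of the 10 genes. On the scale of TPM, Phf6 was not level in those 2 libraries, with 26.5 and 36.4 TPM against 53.7 to 79.3 TPM in the other 9.

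In DN3 cells the Phf6 level in Arpp21-/- differed from WT by -0.08 ± 0.20 (log2, SE), with an edgeR quasi-likelihood Benjamini-Hochberg adjusted p of 1, and by -0.11 ± 0.12 over 9 libraries. The difference in DN2 cells was 0.19 ± 0.22 (adjusted p = 0.648, edgeR). In TPM its sign turned, with -0.50 on the log2(TPM + 1) scale by limma. An offset for the trend over transcript length gave 1.13 ± 0.39 instead, with an unadjusted p under 0.05 that did not pass the adjustment (adjusted p = 0.344, edgeR). DN3 against DN2 gave -0.18 ± 0.20 in WT (adjusted p = 0.914) and -0.45 ± 0.22 in Arpp21-/- (adjusted p = 0.281, edgeR), where all 3 DN3 libraries lay below both DN2 libraries. The genotype difference in DN3 minus that in DN2 was -0.27 ± 0.30 (adjusted p = 0.964, edgeR). Because Phf6 is X-linked and the study does not name the sex behind each library, 4 Y-linked genes were read. A part of sex in the Phf6 level was not tested. Ddx3y and Eif2s3y did not exceed 0.129 CPM in any of the 11 libraries and Uty did not exceed 0.508 CPM, whereas Kdm5d lay at 1.10 to 3.03 CPM.

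The 5 genes nearest to Phf6, by mean absolute difference of log2 CPM centred on each gene's own mean over the 11 libraries, were Mboat7, Hus1, Armc8, Rnf2 and Mkrn2. Their differences, the smallest by choice, were 0.09 to 0.10, where the median over 13779 genes was 0.58. Rnf2, the E3 ligase subunit of Polycomb repressive complex 1 (PRC1), lay at 92.4 to 107 CPM in DN2 WT, 115 and 108 CPM in knockout DN2 cells, 93.4 to 96.3 CPM for DN3 WT and 83.6 to 102 CPM for knockout DN3 libraries. Of the other 9 genes studied here, Dnmt3b was nearest, at 0.54, and Tet1 farthest, at 1.56. Even so, 44.8% of all genes were closer to Phf6 than Dnmt3b was, and 95.5% closer than Tet1.

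Among the core PRC2 genes, Ezh2 lay at 197, 163 and 173 CPM in DN2 WT, at 161 and 25.3 in DN2 Arpp21-/-, at 151, 127 and 115 in DN3 WT and at 132, 168 and 74.9 CPM in DN3 Arpp21-/- libraries. Every DN3 WT library lay below every DN2 WT library, and the lowest value of each knockout group is that of the library that stood apart. Suz12 lay at 27.6, 61.8 and 80.6 CPM in DN2 WT, at 42.8 and 10.7 in DN2 Arpp21-/-, at 29.2, 38.7 and 46.6 in DN3 WT and at 29.6, 44.0 and 39.0 CPM in DN3 Arpp21-/- libraries. All its groups overlapped within each comparison. Eed was low and scattered, with 17.1, 18.4 and 39.4 CPM in DN2 WT, 29.9 and 40.9 CPM in knockout DN2 cells, 16.8, 7.42 and 32.0 CPM for DN3 WT and 3.69, 19.3 and 62.0 CPM for knockout DN3 libraries. Even without the 2 libraries that stood apart Eed ranged 10.7-fold. Its standard error there was 0.76 (log2) in DN3, Arpp21-/- against WT, so that sizeable changes of Eed could go uncalled.

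The accessory subunit Jarid2 lay at 52.9, 43.0 and 46.0 CPM in DN2 WT, at 51.7 and 4.01 in DN2 Arpp21-/-, at 91.0, 65.6 and 85.1 in DN3 WT and at 102, 75.4 and 10.5 CPM in DN3 Arpp21-/- libraries. All DN3 WT libraries and 2 of the 3 DN3 Arpp21-/- libraries therefore lay above all DN2 libraries.

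The maintenance methyltransferase Dnmt1 lay at 779.7, 422 and 401 CPM in DN2 WT, at 559 and 17.2 in DN2 Arpp21-/-, at 545, 399 and 444 in DN3 WT and at 462, 515 and 46.6 CPM in DN3 Arpp21-/- libraries. Outside the 2 low libraries its range was 1.95-fold and no groups separated. Dnmt3a lay at 116, 90.3 and 105 CPM in DN2 WT, at 112 and 14.9 in DN2 Arpp21-/-, at 111, 108 and 107 in DN3 WT and at 152, 127 and 30.3 CPM in DN3 Arpp21-/- libraries. In DN3 cells 2 of the 3 knockout libraries lay above and the remaining library below all WT libraries. Dnmt3b lay at 59.1, 75.9 and 117 CPM in DN2 WT, at 88.8 and 18.5 in DN2 Arpp21-/-, at 32.3, 46.2 and 62.8 in DN3 WT and at 45.4, 53.3 and 33.2 CPM in DN3 Arpp21-/- libraries. Its WT groups overlapped only through DN2 WT replicate 1 and DN3 WT replicate 3.

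Of the dioxygenases, Tet1 lay at 29.1, 10.9 and 41.3 CPM in DN2 WT, at 27.8 and 0.160 in DN2 Arpp21-/-, at 45.1, 45.6 and 38.7 in DN3 WT and at 58.4, 41.3 and 7.67 CPM in DN3 Arpp21-/- libraries. Tet2, the rarest of the genes, lay at 15.9, 7.18 and 4.56 CPM in DN2 WT, at 5.15 and 5.29 in DN2 Arpp21-/-, at 17.3, 11.6 and 14.0 in DN3 WT and at 21.4, 12.0 and 3.71 CPM in DN3 Arpp21-/- libraries. For either gene the groups overlapped. Tet3, the third enzyme of the family, was present at 9.25 to 13.5 TPM in DN2 WT and 13.1 to 15.5 TPM in DN3 WT, above Tet2 in each of these 6 libraries.

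**Figure D2:**
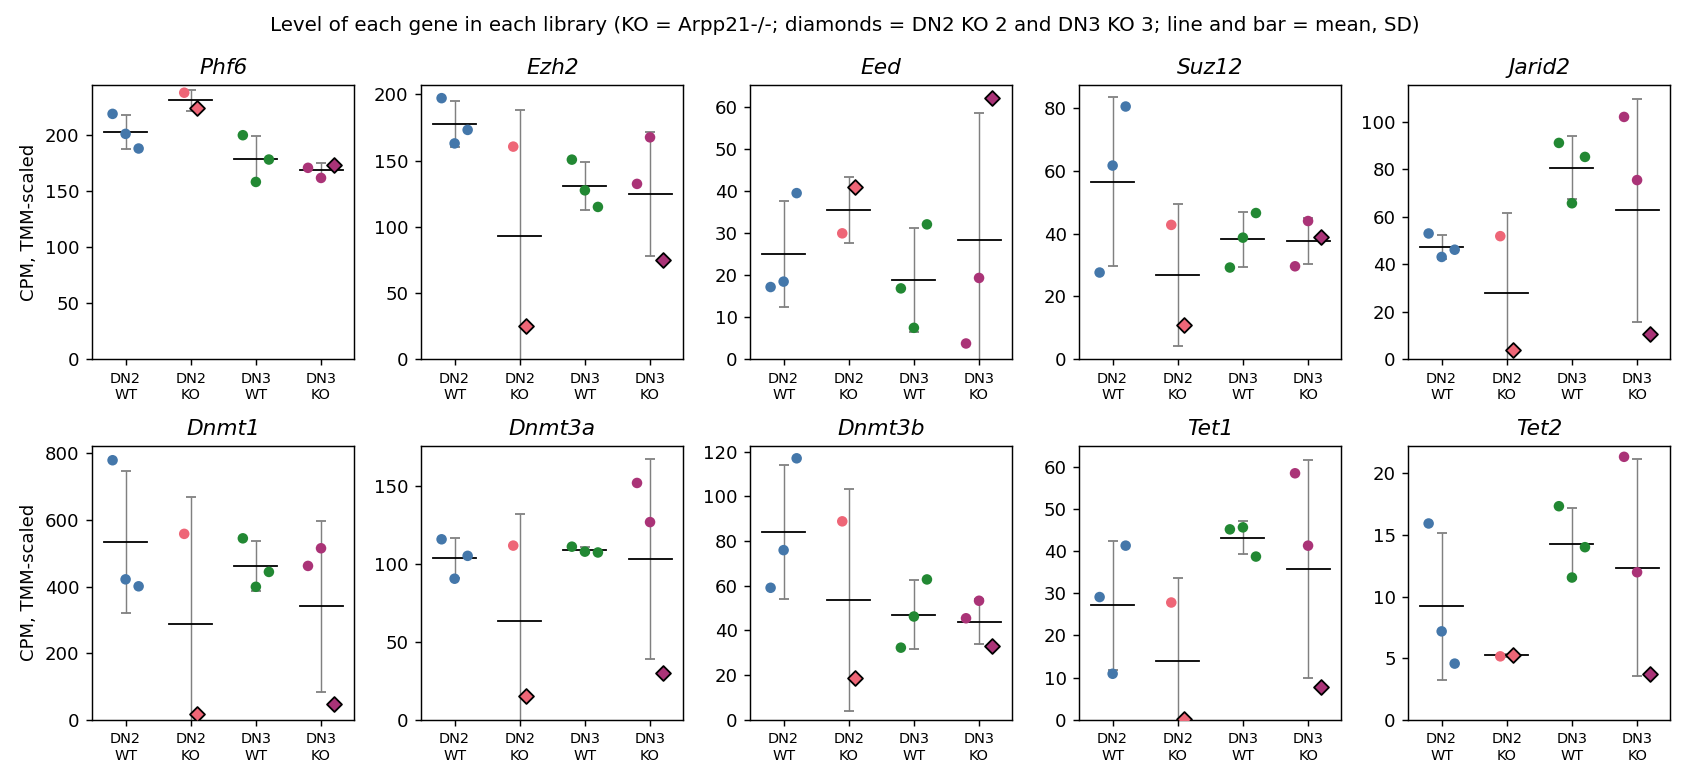
Level of each gene (CPM scaled by TMM, vertical axis from 0, own scale per gene) in each library of the 4 groups, with the group mean as a line and the SD as a bar. Phf6 stays between 158 and 238 CPM in all 11 libraries, while the diamonds (DN2 Arpp21-/- replicate 2 and DN3 Arpp21-/- replicate 3) fall below the other points for Ezh2, Jarid2, Dnmt1, Dnmt3a and Tet1.

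In DN3 cells, Arpp21-/- against WT, none of the 10 genes passed the test. The edgeR test called 0 of 10 at an adjusted p under 0.05 and 0 at an unadjusted p under 0.05, and DESeq2 and limma voom also called 0, beside 0.00726% of all genes tested called by edgeR. Of the 13780 genes, DESeq2 called 16 and limma voom 118. No gene of the 10 had groups that did not overlap, whereas 4.97% of all genes lay higher and 5.57% lower in every knockout library. Log2 differences ranged from -0.44 for Dnmt1 to 0.59 for Eed, with a median of -0.09 against -0.005 over all genes. They were -0.07 for Ezh2, -0.02 for Suz12, -0.36 for Jarid2, -0.08 for Dnmt3a, -0.10 for Dnmt3b, -0.27 for Tet1 and -0.21 for Tet2. The standard errors were 0.51 to 1.17 for the 9 genes other than Phf6. A standard error is not a limit of detection, and changes larger than it could also go uncalled. Without the 2 libraries that stood apart the median was 0.10, and 7 of the 10 values lay above 0 in place of 1. The value for Ezh2 then was 0.19 ± 0.15, for Jarid2 0.13 ± 0.19, for Dnmt1 0.08 ± 0.27 and for Eed -0.72 ± 0.76. Dnmt3a was at 0.35 ± 0.13, the only one of the 10 with an unadjusted p under 0.05 there, and its edgeR adjusted p was 1.

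**Figure D3:**
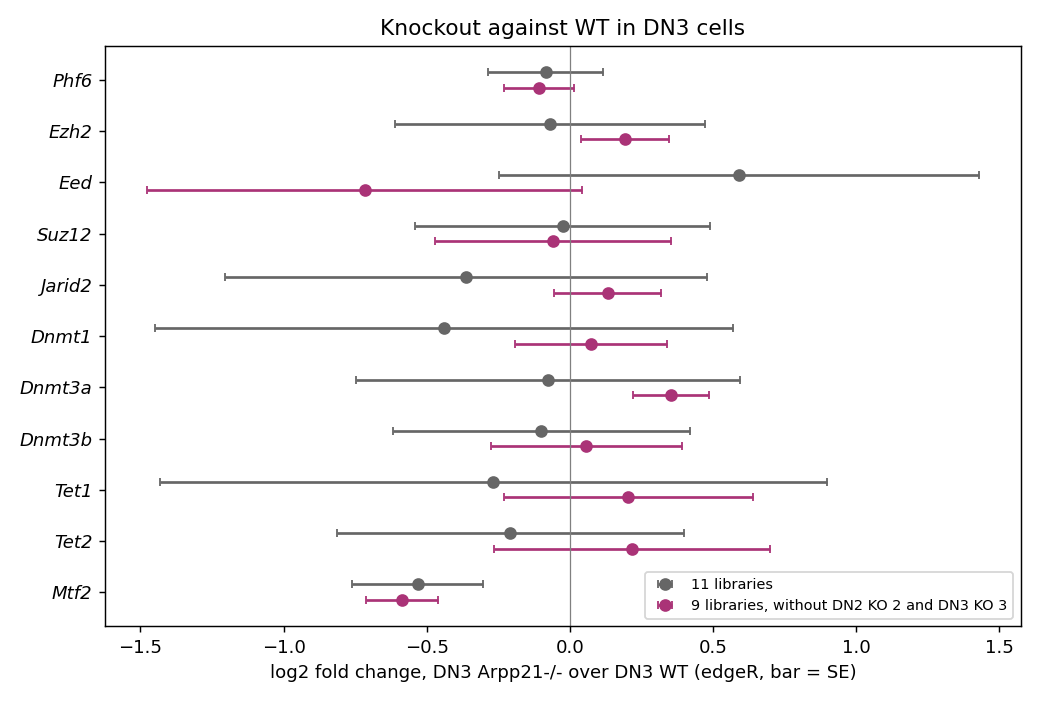
Log2 fold change (horizontal axis, edgeR, bar = SE) of the 10 genes and Mtf2 in DN3 Arpp21-/- over DN3 WT, from 11 libraries (grey) and from 9 libraries (purple). Leaving out the 2 libraries shortens most bars and turns the sign for Ezh2, Eed, Jarid2, Dnmt1, Dnmt3a, Dnmt3b, Tet1 and Tet2, while Phf6, Suz12 and Mtf2 keep theirs.

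In DN2 cells, 8 of the 10 genes had values below 0 in Arpp21-/- against WT, with a median of -0.79 beside -0.06 over all genes, and none passed the test. The count was 0 of 10 by edgeR, with 0 at an unadjusted p under 0.05 and 0 by DESeq2 and limma voom, beside 0% of all genes called by edgeR, which gave 2020 genes an unadjusted p under 0.05 (38 genes called by DESeq2, 0 by limma voom). Ezh2 was at -0.94 ± 0.62 (adjusted p = 0.480) and Suz12 at -1.08 ± 0.59 (adjusted p = 0.401, edgeR). Phf6 lay above WT in every library, which 7.52% of all genes did, and Ezh2 below, as did 8.28%. The low median came with replicate 2, while knockout replicate 1 alone also lay above all WT libraries for Phf6 and below them for Ezh2. Without replicate 2, the median of the 10 was 0.09, with 7 of 10 values above 0, Phf6 at 0.25 ± 0.22 and Ezh2 at -0.13 ± 0.39, a fit in which the lone knockout library is assumed to vary like the other groups. With replicate 2 as the lone knockout library instead, 7 of the 10 genes were called lower (Dnmt1, Suz12, Dnmt3a, Dnmt3b, Ezh2, Jarid2 and Tet1), in a fit that called 46.2% of all genes.

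The difference of the genotype effects between the stages was called for 0 of the 10 genes (edgeR, 0 at an unadjusted p under 0.05, 0 by DESeq2 and limma voom), beside 0% of all genes (373 at an unadjusted p under 0.05, 10 called by DESeq2, 0 by limma voom). Ezh2 was at 0.87 ± 0.82 (adjusted p = 0.964, edgeR). The DN2 and DN3 comparisons share no library, but each stage comparison shares its libraries with the genotype comparisons.

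The 2 libraries that stood apart fell in step with transcript length. In DN2 Arpp21-/- replicate 2, genes of 4000 to 5000 nt had a median log2 CPM 1.74 below the mean of the other DN2 libraries, and genes under 1000 nt a median 2.01 above it. Tet1, with a length of 10263 nt weighted by estimated counts, was lower there by 100-fold, Dnmt1 (5328 nt) by 30.2-fold and Jarid2 (5238 nt) by 11.8-fold. Ezh2 (2481 nt) was lower by 6.82-fold, and only 7.76% of the genes of 2000 to 3000 nt deviated further down. Phf6, at 4331 nt, deviated by 0.09, and 86.1% of the 964 genes of 4000 to 5000 nt lay below it. Suz12, of nearly the same length (4334 nt), was lower by 4.57-fold. Tet2, although long at 7828 nt, was lower by only 1.36-fold as a sum over its transcripts, and 88.2% of the genes of 6000 to 8000 nt lay below it. Its transcripts did not move together there. The retained-intron transcript Tet2-209 held 107 estimated counts in that library and at most 6.27 in the other DN2 libraries. The coding transcript Tet2-201 held 16.1 estimated counts there, against 57.1 to 227 in the other DN2 libraries.

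In DN3 Arpp21-/- replicate 3 the same length class lay 0.83 below the other DN3 libraries in the median, with Dnmt1 lower by 10.1-fold, Jarid2 by 7.84-fold and Tet1 by 5.86-fold. Phf6 deviated by 0.001 and Suz12 by 0.08, above 79.6% and 81.6% of their length class. Eed, the shortest of the genes at 1600 nt, was higher by 2.32 (log2). Against the mean of the other libraries of the stage, 8 of the 10 genes were lower in DN2 replicate 2, all but Phf6 and Eed, and 7 of 10 in DN3 replicate 3, all but Phf6, Eed and Suz12. The library and the gene's own sequence were not separated further.

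**Figure D4:**
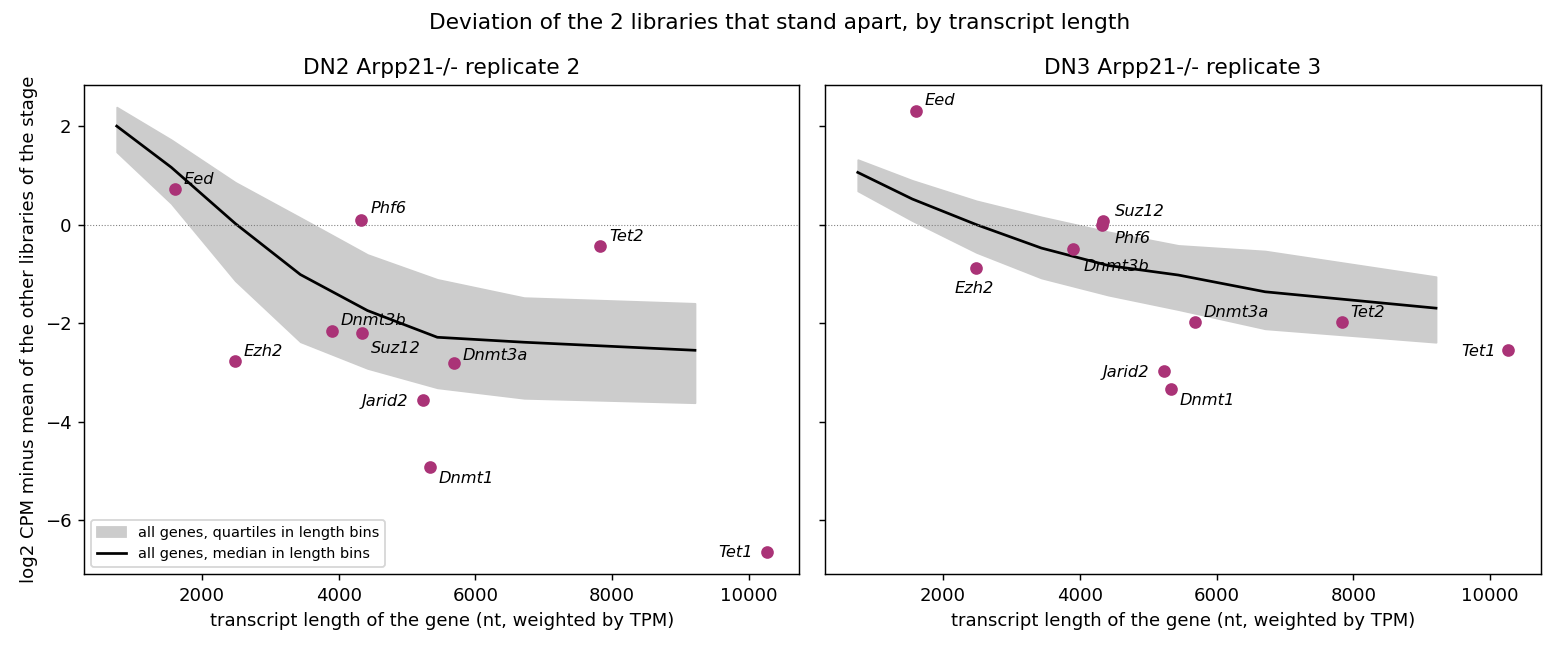
Deviation of log2 CPM from the mean of the other libraries of the stage (vertical axis) against transcript length in nt (horizontal axis) for DN2 Arpp21-/- replicate 2 and DN3 Arpp21-/- replicate 3, with the 10 genes as points and the median and quartiles of all genes of at least 10 CPM as line and band. Phf6 lies near 0 and above the band in both panels, while Dnmt1 lies below the band in both. Lengths are weighted by estimated counts over all libraries, not by TPM.

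From DN2 to DN3 in WT cells, Jarid2 was the member with the highest log2 difference and Dnmt3b the one with the lowest, but none of the 10 passed the test over 11 libraries. The edgeR count was 0 of 10 with 0 at an unadjusted p under 0.05, and 0 by DESeq2 and limma voom, beside 4.08% of all genes called by edgeR. Of the 13780 genes, DESeq2 called 1192 and limma voom 2326. Jarid2 was at 0.77 ± 0.85 (adjusted p = 0.915, edgeR), Ezh2 at -0.44 ± 0.54 (adjusted p = 0.942, edgeR) and Dnmt3b at -0.83 ± 0.52 (adjusted p = 0.627, edgeR). The other values were -0.42 for Eed, -0.57 for Suz12, -0.21 for Dnmt1, 0.07 for Dnmt3a, 0.67 for Tet1 and 0.63 for Tet2. Jarid2 alone was higher in every DN3 library than in every DN2 library, as were 17.5% of all genes, and Ezh2 alone lower, as were 17.3%.

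Without the 2 libraries that stood apart, the standard error for Jarid2 fell from 0.85 to 0.17 and Jarid2 was called higher in DN3 WT, at 0.79 ± 0.17 (adjusted p = 0.0144, edgeR), a 1-in-10 count beside 15.3% of all genes called. With only the 6 WT libraries it was 0.79 ± 0.16 (adjusted p = 0.0165, edgeR), beside 15.6% of all genes. WT libraries with the same replicate number deviated together between the stages (correlations over 8510 genes of 0.69, 0.26 and 0.54), so the WT comparison was also read in pairs.

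Within pairs 1, 2 and 3, DN3 over DN2 was 1.72-, 1.53- and 1.85-fold for Jarid2. The same ratios were 0.764, 0.782 and 0.664 for Ezh2, and 0.546, 0.609 and 0.537 for Dnmt3b, the most even of the 10 genes, with an SD of the log2 ratios of 0.10. Phf6 had ratios of 0.913, 0.786 and 0.948. Altogether Jarid2 and Tet2 were higher in each of 3 pairs, as were 28.4% of all genes, and Phf6, Ezh2, Eed and Dnmt3b lower in each, as were 26.0%. Fitted to the WT libraries alone with the replicate block, a choice made after seeing the data, edgeR called Jarid2 higher at 0.79 ± 0.12 (adjusted p = 0.00248), and Ezh2 lower at -0.42 ± 0.09 (adjusted p = 0.0106) and Dnmt3b lower at -0.80 ± 0.11 (adjusted p = 0.00188). That is 3 of 10 genes beside 23.2% of all genes, a share near the background. With genotype and replicate as the block in the fit to all 11 libraries, the count was 0 of 10 and the count over all genes was 216 in place of 562.

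**Figure D5:**
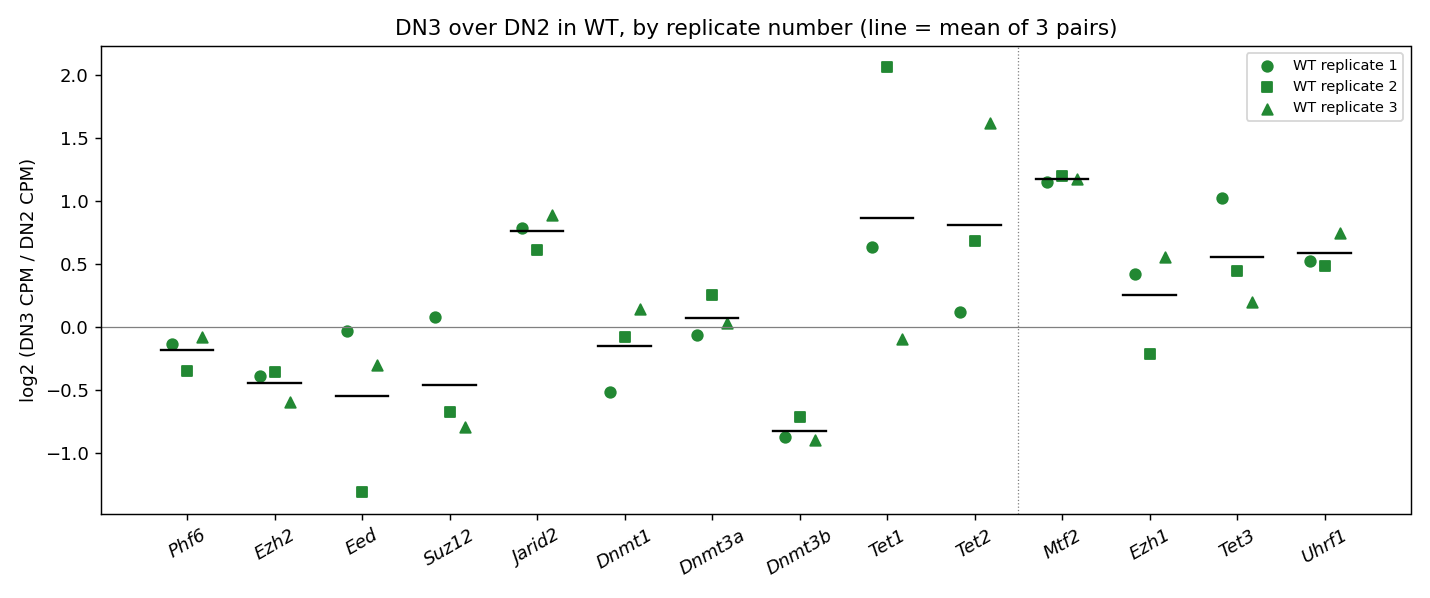
Log2 ratio of DN3 CPM over DN2 CPM in WT (vertical axis) for the 10 genes and, right of the dotted line, Mtf2, Ezh1, Tet3 and Uhrf1, with a symbol for each replicate number and a line at the mean of 3 pairs. The 3 ratios lie close together for Jarid2, Dnmt3b and Mtf2 and far apart for Eed, Tet1 and Tet2.

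From DN2 to DN3 in Arpp21-/- cells, 0 of the 10 genes were called by edgeR (0 at an unadjusted p under 0.05, 0 by DESeq2 and limma voom), beside 4.32% of all genes called by edgeR. Of the 13780 genes, DESeq2 called 1600 and limma voom 140. Phf6 alone had groups that did not overlap, lower in DN3, as were 11.6% of all genes, whereas none of the 10 was among the 13.4% that lay higher. Without the 2 libraries that stood apart, Jarid2 was at 0.77 ± 0.26 (adjusted p = 0.142, edgeR), close to its value in WT, and Phf6 at -0.52 ± 0.16 (adjusted p = 0.104, edgeR).

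The other Polycomb, DNA methylation, methyl-CpG reader and NuRD genes comprised 55 further genes in 6 lists, of which 53 were tested. In each genotype comparison 0 of these 53 were called by edgeR, with an unadjusted p under 0.05 for 1 in DN3 and 3 in DN2. In either stage comparison 1 of 53 was called, higher in DN3, a share below the 4.08% of all genes in WT and 4.32% in Arpp21-/-. That gene was Mtf2, which encodes a Polycomb-like accessory subunit that targets PRC2 to CpG islands. Its level was 208, 217 and 179 CPM in DN2 WT, 169 and 113 CPM in knockout DN2 cells, 463, 499 and 405 CPM for DN3 WT and 312, 297 and 338 CPM for knockout DN3 libraries. All DN3 libraries lay above all DN2 libraries, and all knockout libraries lay below the WT libraries of their stage. Every DN3 library lay higher for 17.5% of all genes in WT and for 13.4% in Arpp21-/-. Every knockout library lay lower for 8.28% of all genes in DN2 and for 5.57% in DN3.

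DN3 against DN2, Mtf2 was higher by 1.18 ± 0.23 in WT (adjusted p = 0.0186, edgeR) and by 1.16 ± 0.26 in Arpp21-/- (adjusted p = 0.0374, edgeR). In WT the ratios were 2.22-, 2.30- and 2.26-fold in the 3 pairs. These calls were not stable, although the values kept their direction: the WT call held in 16 of 26 alternatives and the Arpp21-/- call in 7 of 25. The WT call was lost without any single WT library (values of 1.10 to 1.26), with the genotype and replicate block (1.18 ± 0.24, adjusted p = 0.0833, edgeR) and in TPM (1.28 on log2(TPM + 1), adjusted p = 0.0875, limma). It was kept over 9 libraries (1.19 ± 0.11, adjusted p = 0.000167, edgeR) and in WT libraries alone with the block (1.20 ± 0.07, adjusted p = 2.59e-05, edgeR). The Arpp21-/- call was lost with an adjusted p of 0.102 without DN2 Arpp21-/- replicate 2 (0.87 ± 0.24), 0.135 with the genotype and replicate block (1.14 ± 0.29) and 0.498 when only the 5 knockout libraries were fitted (1.15 ± 0.44, edgeR), and was kept over 9 libraries (0.84 ± 0.17, adjusted p = 0.0202, edgeR). In DN3, Arpp21-/- against WT, Mtf2 was at -0.53 ± 0.23, with an unadjusted p under 0.05 and an edgeR adjusted p of 1. Over 9 libraries it was -0.59 ± 0.12 (adjusted p = 0.264, edgeR), and limma voom with sample quality weights called it lower at -0.59 ± 0.11 (adjusted p = 0.0254).

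Uhrf1, which brings Dnmt1 to newly replicated DNA, lay at 988, 798 and 718 CPM in DN2 WT and at 1425, 1117 and 1207 CPM in DN3 WT, higher without overlap, as were 17.5% of all genes. Its difference was 0.58 ± 0.49 over 11 libraries (adjusted p = 0.803, edgeR) and 0.60 ± 0.13 over 9 libraries (adjusted p = 0.0150, edgeR). Hence the ratio of Uhrf1 to Dnmt1 in TPM was 1.96 to 2.92 in DN2 WT and 4.10 to 4.39 in DN3 WT. Tet3 was at 0.51 ± 0.59 (adjusted p = 0.925, edgeR) and Ezh1 at 0.27 ± 0.62 (adjusted p = 1, edgeR) in the same comparison.

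By list, the number with a value above 0 in WT DN3 against DN2 was 4 of 8 other PRC2 genes, 11 of 19 PRC1 genes, 5 of 5 Polycomb counterparts, 2 of 5 other DNA methylation genes, 3 of 7 methyl-CpG readers and 5 of 12 NuRD genes. The 16 proliferation genes, which include replication factors, all had values below 0, with a median of -0.61 beside 0.01 over all genes, and none was called over 11 libraries (2 at an unadjusted p under 0.05). Without the 2 libraries that stood apart 9 of 16 were called lower, in a fit that called 15.3% of all genes in either direction. Mki67 lay at 174, 112 and 63.5 CPM in DN2 WT and 95.9, 88.6 and 87.0 in DN3 WT, and Top2a at 668, 445 and 439 CPM in DN2 WT and 345, 289 and 297 CPM in DN3 WT libraries. Their part in the lower Ezh2 and Dnmt3b levels of DN3 WT cells was not tested. In DN3, Arpp21-/- against WT, 8 of the 16 lay above 0.

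The transcripts that carried each gene differed in how surely they were assigned. Phf6 signal came nearly wholly from the 4350-nt transcript Phf6-201 (chrX:52912266-52956943, plus strand, GRCm38), with 93.5% to 99.9% of Phf6 TPM in the 9 libraries. Dnmt3a signal came mostly from Dnmt3a-205, a coding transcript of 2328 nt that starts at the intragenic promoter printed above and held 62.7% to 74.7% of Dnmt3a TPM. The long transcripts Dnmt3a-218 (8737 nt) and Dnmt3a-201 (9685 nt) held 7.98% to 16.3% and 4.19% to 11.3%. DN2 WT libraries had 67.4% to 74.7% and DN3 WT libraries 67.0% to 71.8% in Dnmt3a-205, so the stages overlapped. The protein from this shorter form lacks the amino-terminal region of the long form. For Tet1, Tet1-202, a processed transcript of 1505 nt without an annotated coding sequence, held 50.7% to 75.4% of TPM, and the coding transcript of 14369 nt held 11.2% to 22.3%. Eed-205, of 767 nt, held 28.6% to 72.3% of Eed TPM and Eed-201, of 2067 nt, held 0.607% to 65.8%. Ezh2-202, which starts at chr6:47577660 within the gene, held 16.5% to 18.7% of Ezh2 TPM in DN2 WT and 25.6% to 27.7% in DN3 WT, without overlap. These shares were not tested.

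Because Arpp21 prefers uridine-rich sequence, runs of 6 or more U were counted in the 3′-UTR of the leading coding transcript of each of 12375 genes. Phf6 has a 3′-UTR of 3038 nt with 6 such runs, or 1.98 per kb, above 81.3% of genes, and its U content of 35.1% exceeded that of 90.0% of genes. The median gene had 941 nt, 1 run and 28.9% U. Runs were denser than in Phf6 in 4 of the other 9 genes, with 6.41 per kb in Dnmt1, 3.84 in Jarid2, 2.62 in Tet2 and 2.44 per kb in Eed, and the U content was higher in Dnmt1 (41.0%) and Suz12 (36.7%). Tet1 had 9 runs in 7955 nt, Tet2 8 in 3058 nt, Dnmt3a 5 in 5744 nt, Jarid2 4 in 1043 nt, Dnmt1 2 in 312 nt, Dnmt3b 2 in 1331 nt, Suz12 2 in 1933 nt and Eed 1 in 410 nt. Ezh2, with 402 nt, and Mtf2, with 864 nt, had 0. A run is a count of letters and says nothing of binding.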

How the data were processed

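RNA from sorted DN2 and DN3 thymocytes was measured in 11 libraries of 4 groups. Per the labels, the authors quantified each library with kallisto 0.46 on GRCm38, and from the study's methods the libraries were SMART-Seq cDNA tagmented and sequenced as paired ends. The deposited files hold, per transcript, estimated counts (expected counts, not normalized) and TPM, both made by the authors, beside lengths. All other numbers were computed here. Of 119414 transcripts, 116728 were matched to GENCODE M21 (GRCm38) by identifier without version. The sum of the estimated counts over a gene's transcripts was rounded. Genes were kept with at least 10 counts as scaled by edgeR's filter (13780 genes), and tested with edgeR 4.0.16 (TMM, quasi-likelihood, 1 factor of 4 groups, R 4.3.3), with Benjamini-Hochberg adjustment over all genes and a threshold of 0.05. The dispersion was shared over the 4 groups. The study names no tool for differential expression in the sources used here.

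Levels of a gene between libraries are CPM scaled by TMM, and levels between genes are TPM. Alternatives were DESeq2 1.42.0, its size factors, other filters, offsets for transcript length, log2 TPM with pseudocounts 1 and 0.1 in limma 3.58.1, voom weights, blocks, fewer libraries and each library left out. Tests were checked on simulated counts. Promoters came from the RefSeq table. Short transcripts of a gene can take reads of long ones, and cDNA of unequal length between libraries moves counts by length. The labels do not say whether replicates are separate mice, so p-values measure only the spread between these samples. Counting error is small beside it: 3 counts correspond to 0.0802 to 0.242 CPM.

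The 10 genes and the lists were chosen with earlier results of these data known. Genes named beyond the 10 are those of the lists called by edgeR, always Ezh1, Tet3, Uhrf1, Mki67, Top2a and Arpp21, and the 5 genes nearest to Phf6. Rnf2 is among the latter. Replicate numbers paired the WT libraries of DN2 and DN3 (every correlation of deviations over 0.1) and were not taken to pair the others: DN3 WT and Arpp21-/- gave 0.485, -0.301 and 0.163, the knockout stages 0.75 and -0.762, and DN2 WT and Arpp21-/- 0.281 and 0.341, with only 2 pairs where at least 3 were required. Protein sequence and a Phf6 promoter were not used here.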

Additional observations from a re-analysis of the deposited data

How the results depend on the processing

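No gene of the 10 was called in DN3 Arpp21-/- against WT under any alternative. All 5 comparisons gave 0 of 10 except when DN2 Arpp21-/- replicate 1 was left out (leave-one-out range 0 to 7 genes in DN2, 0 to 6 in Arpp21-/- DN3 against DN2, 0 to 6 for the interaction) and in WT DN3 against DN2 (0 to 1 with libraries left out, 1 with the WT libraries alone, 3 with the WT libraries alone and the replicate block). Counts over all genes moved more. For DN3 Arpp21-/- against WT, 1 became 16 with DESeq2, 2 with log2(TPM + 0.1), 118 with voom weights, 0 with the replicate block, 0 with only the compared groups and 0 to 5 with libraries left out. For DN2, 0 became 38 with DESeq2, 4 on log2(TPM + 1) without a filter and 0 to 6777 with libraries left out. For the interaction, 0 became 10 with DESeq2 and 0 to 3664 with libraries left out. In WT, 562 became 1192 (DESeq2), 2326 (voom), 216 (genotype and replicate block), 1946 (WT libraries), 2898 (WT libraries with the block) and 243 to 2226 with libraries left out. In Arpp21-/-, 595 became 1600 (DESeq2), 918 (length trend), 140 (voom), 120 (genotype and replicate block), 0 (the 5 knockout libraries) and 281 to 6754 with libraries left out. With libraries left out, the highest counts came without DN2 Arpp21-/- replicate 1, in DN2, the interaction and the Arpp21-/- stage comparison, and in WT without both libraries that stood apart. With the replicate block over 11 libraries no call of the 10 genes changed, and the Mtf2 call in Arpp21-/- was lost (1.21).

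Several log2 differences turned sign. In DN3 Arpp21-/- against WT, voom weights gave 0.0675 for Dnmt1, 0.24 for Dnmt3a, 0.0552 for Dnmt3b, -0.32 for Eed, 0.28 for Ezh2, 0.0064 for Jarid2, 0.0298 for Tet1 and 0.0351 for Tet2. The length trend gave 0.0295 for Dnmt3a, 0.0788 for Dnmt3b, 0.20 for Phf6 and 0.27 for Suz12. Suz12 was also at 0.0039 with DESeq2 or its size factors, 0.17 with average transcript length as offset and 0.0015 with the replicate block, and Eed at -0.12 and -0.13 in TPM with pseudocounts 1 and 0.1. With libraries left out the ranges were -0.86 to 0.0775 for Dnmt1, -0.47 to 0.36 for Dnmt3a, -0.31 to 0.16 for Dnmt3b, -0.72 to 1.22 for Eed, -0.34 to 0.19 for Ezh2, -0.91 to 0.14 for Jarid2, -0.17 to 0.0033 for Phf6, -0.19 to 0.14 for Suz12, -0.82 to 0.21 for Tet1 and -0.86 to 0.22 for Tet2. In WT the ranges were -0.38 to 0.17 for Dnmt1, -0.0265 to 0.15 for Dnmt3a (-0.10 with the length trend) and -1.04 to 0.0769 for Eed. In TPM (pseudocounts 1 and 0.1), Phf6 turned to -0.50 and -0.52 in DN2, 0.12 and 0.13 in the Arpp21-/- stage comparison and 0.18 and 0.19 for the interaction. The cause was not tested. The lowest level, 0.160 CPM of Tet1 in DN2 Arpp21-/- replicate 2, is near the 0.0802 CPM that 3 counts are worth there.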
